A study of Mus musculus with 27 samples.

Results

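The nuclear genes for the subunits of the mitochondrial respiratory chain were followed in mouse fibroblasts during conversion toward induced cardiomyocytes. Members were taken by symbol: Nduf genes of the A, B, C, S and V series for complex I, Sdha to Sdhd for complex II, Uqcr genes for complex III, Cox4 to Cox8 genes for complex IV and Atp5 genes for complex V. By this rule 81 of the 19938 genes measured on the arrays were members, 35 of them in complex I, 4 in complex II, 8 in complex III, 17 in complex IV and 17 in complex V. A probe set that the annotation gives to more than 1 symbol was not used, so Cox7c and Ndufb4 were not analysed here. Ndufa4 is grouped with complex I by its symbol, although its protein is now placed in complex IV.

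The respiratory chain passes electrons from NADH (complex I) and succinate (complex II) through complex III to cytochrome c oxidase (complex IV), and ATP synthase (complex V) uses the proton gradient that complexes I, III and IV build. Most subunits are encoded in the nucleus and made in every cell, while a few complex IV subunits exist in pairs of isoforms, one found in nearly all tissues and one restricted to heart and skeletal muscle, testis or lung. Heart muscle is among the tissues richest in mitochondria, and the muscle isoforms COX6A2, COX7A1 and COX8B replace their widespread partners there as the mouse heart matures.

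Mouse embryonic fibroblasts (MEFs) came from embryos of mixed genetic background from which the heart and other viscera had been removed, and cardiac fibroblasts (CFs) came from adult mouse hearts. By the protocols, cultures were first given lentiviruses for rtTA, which turns on tetO-driven genes in the presence of doxycycline (2 μg/mL), and for a calcium reporter under the cardiac Troponin T promoter, and whether 0TF cultures carried them is not settled by the labels. HNGMT cultures received tetO lentiviruses for Hand2, Nkx2.5, Gata4, Mef2C and Tbx5, and 0TF cultures received none of the 5 factors, being called empty vector in one field of the labels while another field mentions cells without transduction. Cultures were held with SB431542 (SB, an inhibitor of the TGFβ type I receptors Alk4, Alk5 and Alk7, at 0.5 μM in MEFs and 5 μM in CFs), with TGFβ1 (2 ng/mL) or with the vehicle DMSO, and RNA was taken at Day 3. The 6 MEF groups were HNGMT+SB, HNGMT+TGFβ1, HNGMT+DMSO, 0TF+SB, 0TF+TGFβ1 and 0TF+DMSO, and the 3 CF groups were HNGMT+SB, HNGMT+TGFβ1 and HNGMT+DMSO. Each group had 3 cultures described as independent biological replicates and each culture had 1 array, so that the number of arrays limits the precision.

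Values are log2 intensities as deposited, with array medians of 7.83 to 7.91 in MEFs and 7.36 to 7.43 in CFs, and no test was made between the cell types. The array measures RNA of a mixed culture, so a larger share of cells of 1 type and more RNA per cell cannot be told apart. The 18 cardiac sarcomere genes measured had mean levels of 9.42 to 9.98 in HNGMT MEFs and at most 8.26 in 0TF MEFs. The 14 fibroblast genes averaged 11.71 to 12.23 in HNGMT MEFs and 12.35 to 12.70 in 0TF MEFs, and the 18 adipocyte genes averaged 10.27 to 10.37 in 0TF+SB and at most 8.51 in the other 15 MEF cultures. One CF culture stood apart from its group: in HNGMT+SB replicate 3 the cardiac sarcomere genes averaged 8.77, against 9.36 in each of the other 2, and 16 endothelial genes averaged 9.27, against 10.56 and 10.59. Endothelial genes were far brighter in all CF cultures (9.27 to 10.59) than in MEFs (7.23 to 7.60). Among MEFs, 0TF+SB replicate 2 had a median deviation of the members of -0.19 from their MEF mean, against -0.08 and -0.06 in the other 2 cultures of that group.

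Without added molecules, the factors went with higher levels of most subunit genes in MEFs. In HNGMT+DMSO against 0TF+DMSO, 53 of the 81 members rose, 1 fell and 27 did not pass the test (limma, adjusted p under 0.05 over all genes), where 21.6% of all genes rose and 18.9% fell. The median log2 fold change was 0.22 for the members and -0.01 for all genes, so that most changes were small. By complex the medians were 0.18 for complex I (19 of 35 rose), 0.26 for complex II (3 of 4), 0.34 for complex III (6 of 8), 0.26 for complex IV (11 of 17) and 0.24 for complex V (14 of 17). The gene that fell was Cox4i2, an isoform known from lung and from low oxygen. Only 4 members, Cox5a, Cox8b, Uqcrq and Atp5l, passed the study's 1.5-fold threshold as well, all upward, where 9.08% of all genes passed it in either direction. In the same comparison 12 of the 18 cardiac sarcomere genes rose (median 1.35), 11 of the 14 fibroblast genes fell (median -0.37) and 10 of the 15 proliferation genes rose (median 0.18), and their part in the members' rises was not tested.

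**Figure D1:**
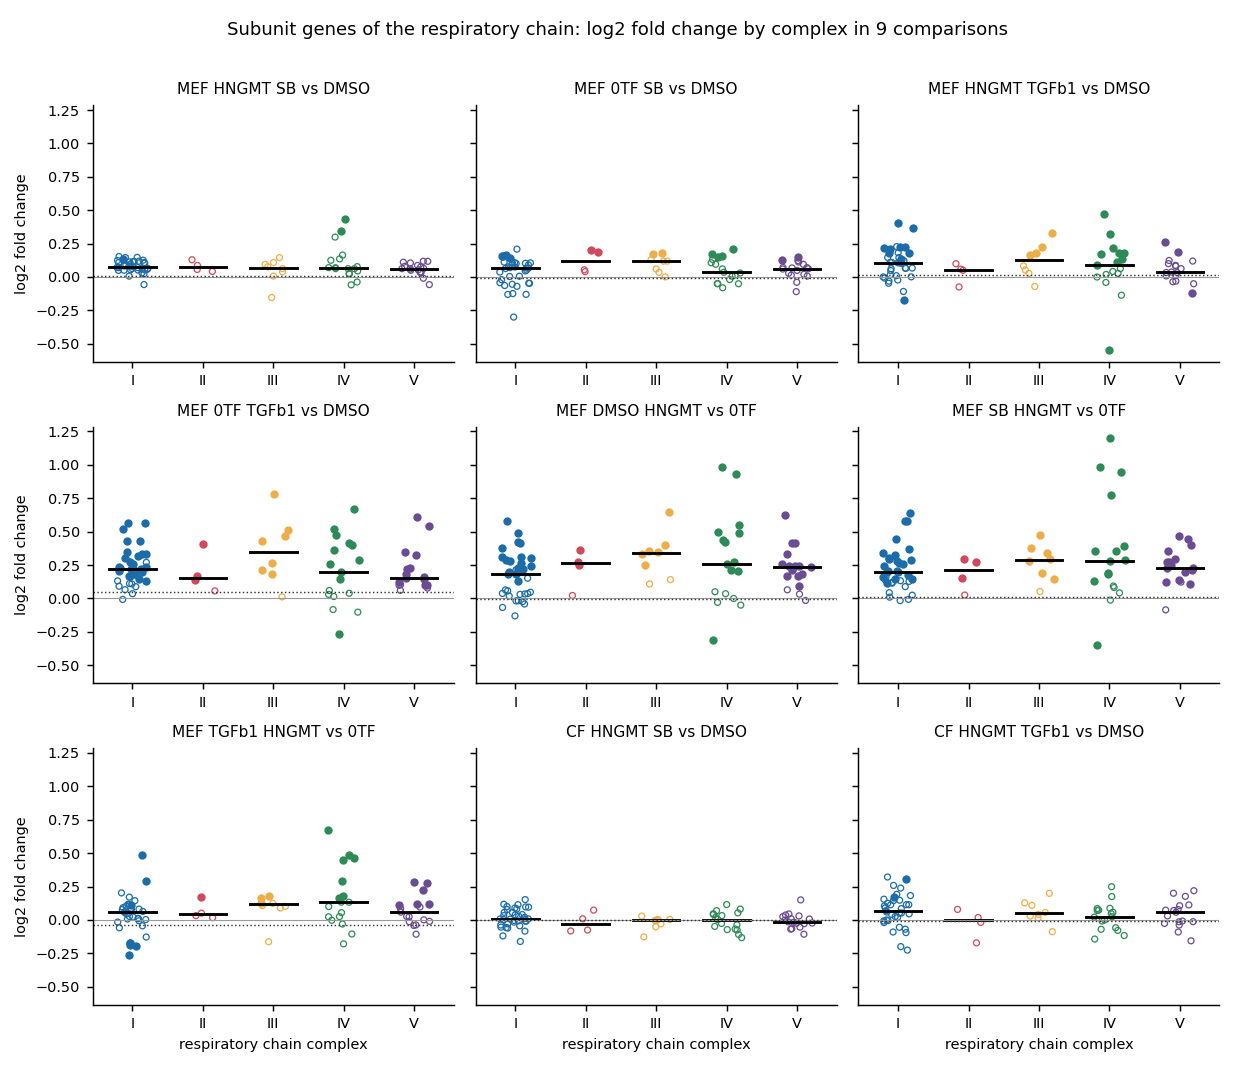
Each point is the log2 fold change of 1 subunit gene, grouped by respiratory chain complex (x axis), in each of 9 comparisons named as first group vs second group. Filled points passed an adjusted p of 0.05, black bars are the complex medians and the dotted line is the median of all genes. All complex medians lay above the dotted line in every comparison except CF HNGMT SB vs DMSO. Medians of all members were largest, at 0.22, 0.21 and 0.20, in DMSO HNGMT vs 0TF, SB HNGMT vs 0TF and 0TF TGFb1 vs DMSO.

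Under SB, the factors gave a similar number of calls. Of the 81 members, 60 rose, 1 fell and 20 did not pass in HNGMT+SB against 0TF+SB, beside 21.7% of all genes higher and 20.1% lower, and the median was 0.21 for the members and 0.01 for all genes. Rises were counted for 23 of 35 genes of complex I (median 0.20), 3 of 4 of complex II (0.21), 7 of 8 of complex III (0.29), 12 of 17 of complex IV (0.28) and 15 of 17 of complex V (0.23). Cox4i2 was again the gene that fell. Here 5 members passed 1.5-fold, all upward (Cox8b, Cox7a1, Cox6b2, Cox5a and Ndufs6), against 9.85% of all genes in either direction. Here 15 of the 18 cardiac sarcomere genes rose (median 1.74), while 11 of the 14 fibroblast genes (median -0.52) and 17 of the 18 adipocyte genes (median -1.18) fell, and their part was again not tested.

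Under TGFβ1 the factors had less effect on the members. In HNGMT+TGFβ1 against 0TF+TGFβ1, 20 members rose, 5 fell and 56 did not pass, while 20.5% of all genes rose and 23.6% fell. The median was 0.08 for the members and -0.04 for all genes. All 5 members that fell belong to complex I, of whose 35 genes 3 rose and 27 did not pass (median 0.06). Ndufs3 fell by 0.26, Ndufs5 by 0.19, Ndufa5 by 0.19, Ndufa7 by 0.17 and Ndufb3 by 0.17 on the log2 scale. Ndufb3, named after its values were seen, overlapped between the groups. NDUFS3 is a core subunit of the arm that takes up electrons from NADH, and the others are accessory subunits. Of these calls, that of Ndufs5 (adjusted p = 0.048) did not hold when any of 5 of the 6 cultures was left out (adjusted p = 0.062 to 0.21), and that of Ndufa7 did not hold without 0TF+TGFβ1 replicate 2 (adjusted p = 0.082) or HNGMT+TGFβ1 replicate 3 (adjusted p = 0.098). That of Ndufb3 was lost without any of 4 of the 6 cultures (0TF+TGFβ1 replicates 2 and 3, HNGMT+TGFβ1 replicates 1 and 3) and with the 2 groups fitted alone. Cox6b2 alone passed 1.5-fold, where 10.3% of all genes did. In the same comparison 11 of the 18 cardiac sarcomere genes rose and 1 fell (median 0.87), and 11 of the 14 fibroblast genes fell (median -0.42). Of the 15 proliferation genes 12 fell and 1 rose (median -0.34). The part of these 3 lists was not tested.

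The effect of TGFβ1 itself was measured with and without the factors. In 0TF MEFs the members rose with TGFβ1: 58 of 81 rose, 1 (Cox4i2) fell and 22 did not pass, beside 27.5% of all genes higher and 19.4% lower. The median was 0.20 for the members against 0.05 for all genes. Complex III had the highest median (0.35, 7 of 8 rose), followed by complex I (0.22, 25 of 35), complex IV (0.20, 10 of 17), complex V (0.15, 13 of 17) and complex II (0.15, 3 of 4). Uqcrq, Cox5a and Atp5l passed 1.5-fold upward, where 10.4% of all genes passed it in either direction. This comparison and that of HNGMT+DMSO with 0TF+DMSO share the 0TF+DMSO cultures.

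In HNGMT MEFs the same addition moved fewer members. With TGFβ1 against DMSO, 24 members rose, 3 fell (Cox8b, Ndufs3 and Atp5c1) and 54 did not pass, beside 21.5% of all genes higher and 14.3% lower, with a median of 0.08 for the members and 0.02 for all genes. The rises were spread as 9 of 35 in complex I, 0 of 4 in complex II, 4 of 8 in complex III, 9 of 17 in complex IV and 2 of 17 in complex V. No member passed 1.5-fold, against 5.77% of all genes. The call of Atp5c1 (gamma subunit of the ATP synthase stalk, log2 fold change -0.12) was lost without either of 2 DMSO cultures (replicates 2 and 3, adjusted p = 0.078 and 0.13) or 2 TGFβ1 cultures (replicates 1 and 2, adjusted p = 0.055 and 0.083), with the 2 groups fitted alone (adjusted p = 0.082) and with median scaling (adjusted p = 0.13).

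The difference between these 2 effects was tested as an interaction. The TGFβ1 effect was lower in HNGMT than in 0TF MEFs for 29 of the 81 members and higher for none, while over all genes 15.9% were lower and 15.4% higher. The median of the difference was -0.13 for the members and -0.03 for all genes, and the sign was negative for 70 of 81. By complex, 9 of 35 genes of complex I, 2 of 4 of complex II, 4 of 8 of complex III, 6 of 17 of complex IV and 8 of 17 of complex V had a lower effect. The count ranged between 24 and 30 when single cultures were left out. In the same 2 comparisons the 15 proliferation genes all fell with TGFβ1, with a median of -1.19 in HNGMT and -0.78 in 0TF MEFs. Of the 14 fibroblast genes, 8 fell and 1 rose in HNGMT MEFs (median -0.35), and 8 fell and 4 rose in 0TF MEFs (median -0.23). The part of both lists in the interaction was not tested.

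**Figure D2:**
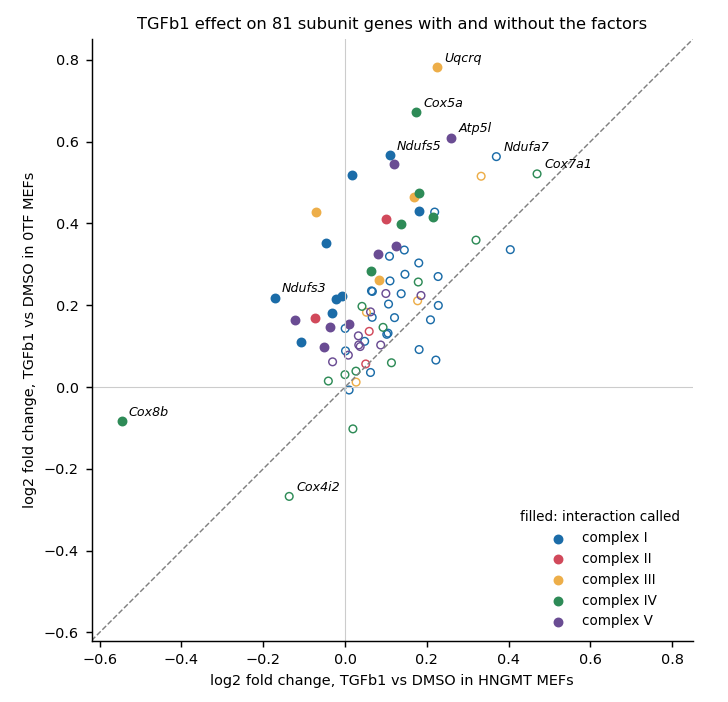
Each point is 1 of the 81 subunit genes, with its log2 fold change for TGFb1 vs DMSO in HNGMT MEFs on the x axis and in 0TF MEFs on the y axis, coloured by complex; the dashed line marks equal change. Filled points are the 29 genes whose difference passed an adjusted p of 0.05, and all of them lie above the line.

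Uqcrq, a small subunit of complex III, shows the pattern. Its level was 11.47, 11.52 and 11.51 in HNGMT+TGFβ1, against 11.34, 11.24 and 11.25 in HNGMT+DMSO. In 0TF MEFs it was 11.36, 11.43 and 11.44 with TGFβ1, against 10.53, 10.66 and 10.70 with DMSO. The cultures with TGFβ1 lay above those with DMSO in both settings, and the 0TF+DMSO cultures lay lowest of the 4 groups. The log2 fold change was 0.22 ± 0.05 (SE; adjusted p = 8.2e-04) with the factors and 0.78 ± 0.05 (adjusted p = 1.5e-10) without them, a difference of -0.56 ± 0.07 (adjusted p = 3.4e-06).

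Cox5a, a subunit of complex IV found in all tissues, went the same way. It was at 11.55, 11.54 and 11.58 in HNGMT+TGFβ1 and at 11.33, 11.44 and 11.39 in HNGMT+DMSO, while 0TF+TGFβ1 cultures had 11.10, 11.05 and 11.06 and 0TF+DMSO cultures 10.37, 10.36 and 10.47. No 2 of these groups overlapped. The factors raised it 1.98-fold in DMSO (log2 0.99 ± 0.05, adjusted p = 3.8e-11) and 1.40-fold under TGFβ1 (0.49 ± 0.05, adjusted p = 4.2e-07). TGFβ1 raised it by 0.17 with the factors and by 0.67 without them, and the difference of -0.50 passed the test (adjusted p = 4.6e-05). The call with the factors was lost without HNGMT+DMSO replicate 1 (adjusted p = 0.061).

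Atp5l, subunit g in the membrane part of ATP synthase, was measured by 6 probe sets. On the brightest it was at 11.12, 11.13 and 11.08 in HNGMT+TGFβ1, against 10.77, 10.92 and 10.86 in HNGMT+DMSO, and at 10.83, 10.74 and 10.94 in 0TF+TGFβ1, against 10.14, 10.21 and 10.33 in 0TF+DMSO. The TGFβ1 effect was 0.26 with the factors and 0.61 without them (difference -0.35, adjusted p = 0.0045), and the 6 probe sets gave 0.59 to 0.62 in 0TF MEFs. Whether these sets read separate sequences was not checked, so they are not counted as independent measurements. The upstream 250 bases of Atp5l are shown because they hold the words for NRF1 and ETS factors, 2 regulators of nuclear genes for mitochondrial proteins. They are taken from RefSeq (GRCm38.p6, chr9:44920743-44920992, minus strand, printed 5′ to 3′ toward the gene), with the words in capitals, from left to right NRF1, NKX2-5, ETS and TATA, each on the opposite strand.
Atp5l: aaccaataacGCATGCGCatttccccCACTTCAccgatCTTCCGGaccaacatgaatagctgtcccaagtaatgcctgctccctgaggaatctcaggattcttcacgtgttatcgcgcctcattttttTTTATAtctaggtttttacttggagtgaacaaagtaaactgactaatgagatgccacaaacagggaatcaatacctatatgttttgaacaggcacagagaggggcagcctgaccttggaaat
Promoters were found for 66 of the 81 members (71 promoters), and both strands of the 250 bases before the start were searched. GCGCATGC (NRF1) stood in 11.3% of them and in 2.26% of all 32851 promoters, and CCGGAAG (ETS) in 16.9% and 6.91%. The words for the factors of the cocktail were about as frequent in members as elsewhere or less: AGATAA or its forms with T first or G last (GATA) in 26.8% and 26.5%, TNAAGTG (NKX2-5) in 9.86% and 10.1%, AGGTGT (TBX5) in 9.86% and 11.8%, CATCTG (HAND) in 8.45% and 14.4%, and the MEF2 word in 1.41% and 3.2%. AAGATGGC (YY1) stood in 1.41% and 1.56%, TCAAGGTCA (ERR) in 1.41% and 0.387%, GTCTAGAC (SMAD) in 0% and 0.167%, and TATAAA in 11.3% and 12.4%. A match is only these letters in this window.

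Among complex I genes, Ndufs3 moved in opposite directions with TGFβ1. It was at 11.56, 11.62 and 11.65 in HNGMT+TGFβ1, against 11.77, 11.78 and 11.79 in HNGMT+DMSO, and at 11.83, 11.89 and 11.88 in 0TF+TGFβ1, against 11.64, 11.65 and 11.66 in 0TF+DMSO. The changes were -0.17 and 0.22, and the difference of -0.39 passed the test (adjusted p = 1e-05). A second probe set of the gene gave -0.16 and 0.24. Ndufs5, which faces the intermembrane space, had 9.41, 9.55 and 9.30 in HNGMT+TGFβ1 and 9.40, 9.27 and 9.26 in HNGMT+DMSO, with overlap, but 9.57, 9.60 and 9.66 in 0TF+TGFβ1 and 8.97, 9.20 and 8.96 in 0TF+DMSO (difference -0.46, adjusted p = 0.0028). Ndufa5, an accessory subunit, differed by -0.22 (adjusted p = 0.018), a call that was lost without 0TF+DMSO replicate 3 (adjusted p = 0.055) or HNGMT+TGFβ1 replicate 1 (adjusted p = 0.051).

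Other complex I genes rose with TGFβ1 in both settings. Ndufa7, an accessory subunit, was at 10.93, 11.01 and 10.85 in HNGMT+TGFβ1 and at 10.63, 10.47 and 10.58 in HNGMT+DMSO (log2 fold change 0.37, adjusted p = 4.9e-05). In 0TF MEFs it was at 11.05, 11.16 and 11.11 with TGFβ1 and at 10.54, 10.55 and 10.54 with DMSO (0.56, adjusted p = 1.8e-07). Ndufa1, a small subunit needed for assembly of complex I, changed by 0.40 and 0.34, and Ndufv3 by 0.23 and 0.20, all past the test. Neither the SB nor the TGFβ1 interaction was called for Ndufa7, Ndufa1 or Ndufv3.

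Within complex II, Sdhd, a membrane anchor, and Sdha, the flavoprotein that oxidises succinate, behaved differently. Sdhd was at 11.30, 11.42 and 11.33 in HNGMT+TGFβ1, 11.24, 11.23 and 11.28 in HNGMT+DMSO, 11.29, 11.28 and 11.33 in 0TF+TGFβ1, and 10.89 in each 0TF+DMSO culture. The interaction was -0.31 (adjusted p = 5.6e-04). Sdha rose with the factors in all 3 media, by 0.25 in DMSO, 0.15 in SB and 0.17 in TGFβ1, and its TGFβ1 interaction was not called.

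**Figure D3:**
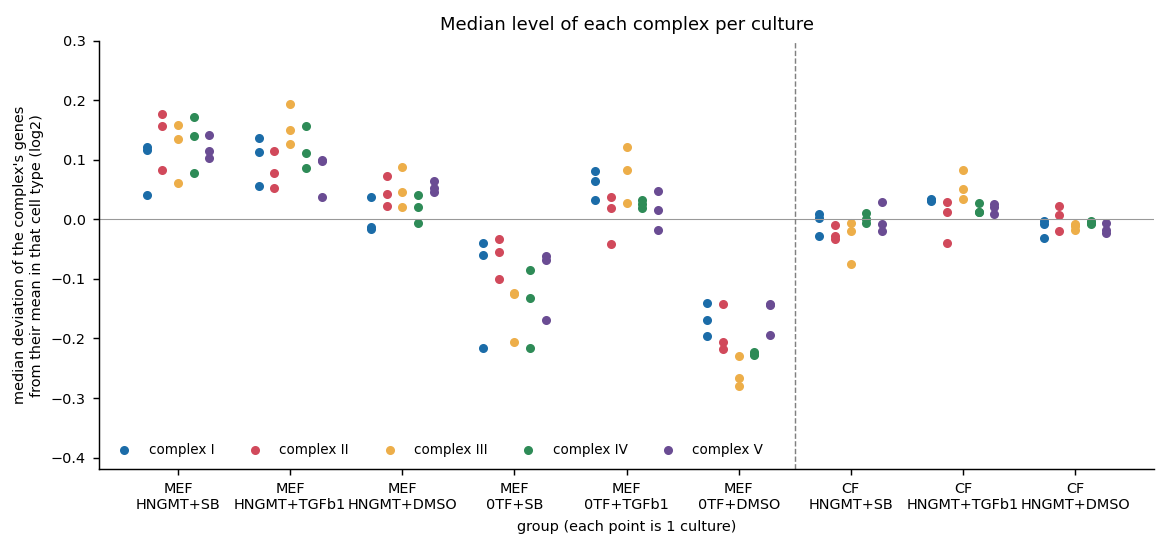
Each point is 1 culture: the median, over the genes of a complex (colour), of their deviation in log2 units from their mean in that cell type, by group; the dashed line separates MEF from CF groups. Over all members the 0TF+DMSO cultures lay at -0.20 to -0.17, 0TF+SB replicate 2 lay at -0.19, and the CF cultures stayed between -0.02 and 0.04.

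SB alone moved a minority of the subunit genes, and every called change was upward. In 0TF MEFs with SB against DMSO, 14 members rose, 0 fell and 67 did not pass, beside 8.71% of all genes higher and 7.87% lower, and the median was 0.06 for the members and -0.01 for all genes. The 14 were 4 of complex I, 2 of complex II, 2 of complex III, 4 of complex IV and 2 of complex V, and the largest changes among these 14 were those of Cox4i1 (0.21), Sdhd (0.20) and Sdha (0.18). None passed 1.5-fold, against 2.4% of all genes. The count fell to 7 without 0TF+DMSO replicate 1, to 8 without 0TF+SB replicate 1 and to 8 without 0TF+SB replicate 3, while Sdhd and Sdha kept their calls. That of Cox4i1 was lost without 0TF+DMSO replicate 1 or 0TF+SB replicate 3 (adjusted p = 0.09 and 0.092) and with the 2 groups fitted alone (adjusted p = 0.11). In the same cultures 16 of 18 adipocyte genes rose (median 1.51) and 13 of 17 genes of the TCA cycle and pyruvate entry rose (median 0.16). The part of adipocyte genes in these rises was not tested.

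In HNGMT MEFs with SB, only 3 members passed. Cox7a1, Cox6b2 and Ndufv3 rose, none fell and 78 did not pass, beside 3.34% of all genes higher, 4.04% lower and 0.823% past 1.5-fold, which no member reached. The median was 0.07 for the members and 0.01 for all genes, with 75 of the 81 values above 0. Without HNGMT+DMSO replicate 1, or without HNGMT+SB replicate 3, 5 members passed. The call of Ndufv3 (0.14, adjusted p = 0.036) was lost without HNGMT+DMSO replicate 2 or 3 or HNGMT+SB replicate 1 or 2 (adjusted p = 0.13 to 0.19), and also with the 2 groups fitted alone, quantile normalization or median scaling (adjusted p = 0.18, 0.062 and 0.074). Cox7a1 and Cox6b2 kept theirs in each of these fits.

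Of the 8 tissue-restricted isoforms listed, 3 rose and 1 fell with the factors in DMSO, with a median of -0.01. Over all genes 21.6% rose and 18.9% fell in that comparison. Cox7a1, the heart and skeletal muscle form of subunit VIIa, was at 8.92, 9.23 and 8.91 in HNGMT+SB, at 8.99, 9.24 and 8.93 in HNGMT+TGFβ1 and at 8.67, 8.53 and 8.55 in HNGMT+DMSO. In 0TF MEFs it was at 7.88, 8.01 and 8.19 with SB, at 8.65, 8.52 and 8.64 with TGFβ1 and at 8.07, 8.14 and 8.03 with DMSO. Both additions lay above DMSO in HNGMT cultures, while in 0TF cultures only TGFβ1 did and SB overlapped DMSO. The SB effect was 0.43 ± 0.09 with the factors (adjusted p = 0.0057) and -0.05 ± 0.09 without them (adjusted p = 0.83), and the TGFβ1 effect was 0.47 ± 0.09 and 0.52 ± 0.09 (adjusted p = 5.4e-04 and 1.3e-04). The SB effects differed by 0.49 ± 0.13 (adjusted p = 0.026), a call lost without any of 7 of the 12 cultures (HNGMT+SB replicate 2, HNGMT+DMSO replicates 2 and 3, 0TF+SB replicates 1 and 2, 0TF+DMSO replicates 1 and 2, adjusted p = 0.052 to 0.075).

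Cox8b, the muscle form of subunit VIII, which is also made in brown fat, went up with the factors and down with TGFβ1. It was at 8.54, 8.79 and 8.25 in HNGMT+SB, 7.65, 7.65 and 7.75 in HNGMT+TGFβ1 and 8.18, 8.29 and 8.22 in HNGMT+DMSO, and all 9 cultures of 0TF MEFs lay between 7.12 and 7.39. Every HNGMT MEF culture thus lay above every 0TF MEF culture. The 0TF levels were under the 40th percentile of all genes' means (7.61), so that the fold changes are set against a dim level, and no detection call was used. The gene's mean over all arrays was under that value too, so that it is not among the genes tested when dim genes are left out. The 8 brown fat genes measured averaged 7.01 to 7.14 in HNGMT MEFs and 7.10 to 7.24 in 0TF MEFs, and 12 skeletal muscle genes averaged 7.43 to 7.62 and 7.38 to 7.73. The factors raised it by 0.93 ± 0.10 in DMSO (1.91-fold, adjusted p = 2.9e-07), 1.20 ± 0.10 under SB (2.30-fold, adjusted p = 9.3e-09) and 0.47 ± 0.10 under TGFβ1 (1.38-fold, adjusted p = 6.3e-04). TGFβ1 changed it by -0.55 ± 0.10 in HNGMT MEFs (adjusted p = 1.8e-04) and by -0.08 in 0TF MEFs (adjusted p = 0.52), with a difference of -0.46 (adjusted p = 0.014). The 0TF+DMSO cultures already lay in that dim range, and the part of that in the difference was not tested. The SB effect in HNGMT MEFs was 0.30 ± 0.10 and did not pass (adjusted p = 0.074), but did so without HNGMT+SB replicate 3 (0.44, adjusted p = 0.0022).

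Cox6b2, known as the testis form of subunit VIb, was at 10.94, 10.97 and 10.89 in HNGMT+SB, 10.55, 10.68 and 10.59 in HNGMT+TGFβ1 and 10.72, 10.49 and 10.55 in HNGMT+DMSO. All 9 cultures of 0TF MEFs were lower, between 9.76 and 10.07. The factors raised it by 0.55 in DMSO, 0.95 under SB and 0.67 under TGFβ1 (adjusted p = 7.6e-06, 7.2e-09 and 6.3e-07). SB raised it by 0.35 ± 0.07 in HNGMT MEFs (adjusted p = 0.0064) and changed it by -0.05 in 0TF MEFs (adjusted p = 0.78), and TGFβ1 gave 0.02 and -0.10 (adjusted p = 0.89 and 0.29). The SB effects differed by 0.40 (adjusted p = 0.024), and this call was lost without any of 6 of the 12 cultures (HNGMT+SB replicates 1 and 2, HNGMT+DMSO replicates 2 and 3, 0TF+SB replicate 2, 0TF+DMSO replicate 2, adjusted p = 0.053 to 0.072). Over all 81 members these 2 genes were the ones with a called SB interaction, both higher, beside 4.13% of all genes higher and 4.3% lower.

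**Figure D4:**
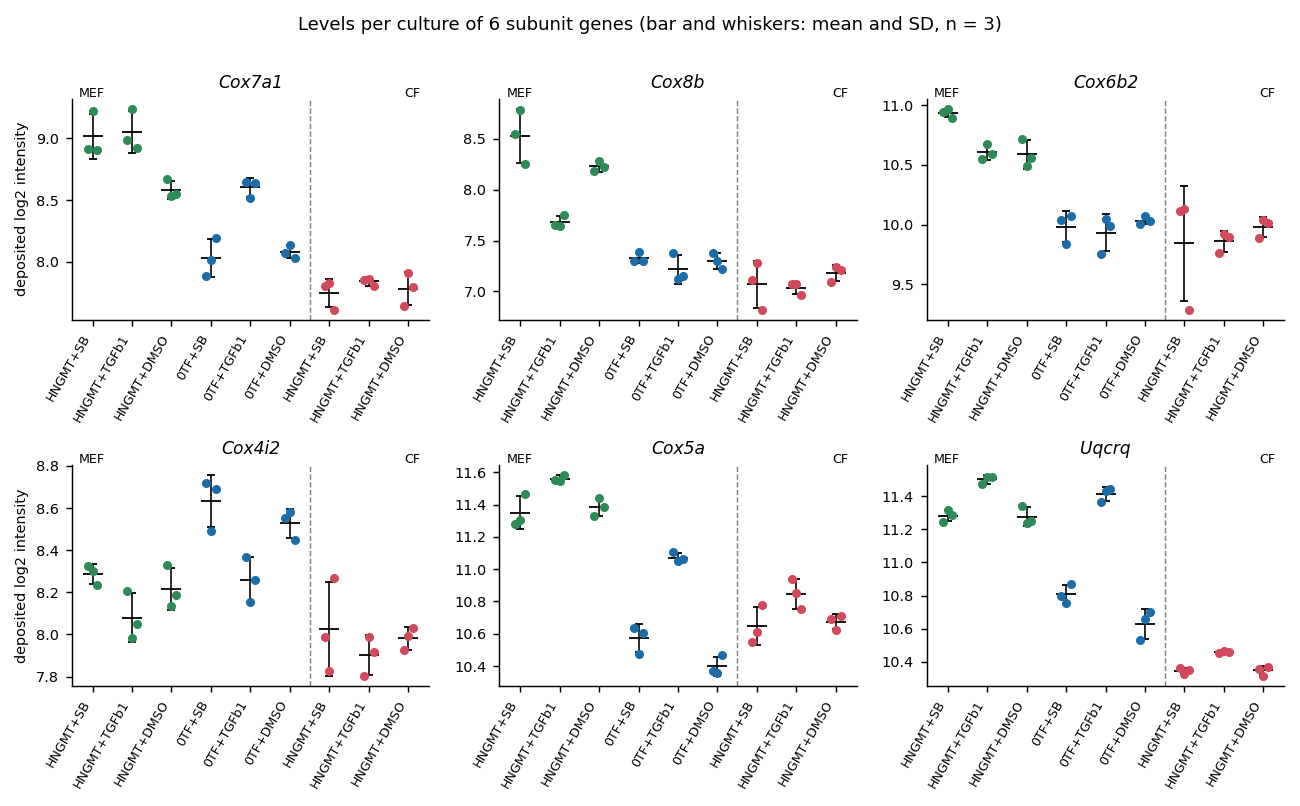
Deposited log2 intensity (y axis) of 6 subunit genes in each culture (points) of the 9 groups (x axis), with the group mean and SD (bar and whiskers, n = 3); the dashed line separates MEF from CF groups. Cox7a1, Cox8b and Cox6b2 were higher in HNGMT than in 0TF MEFs in matched media, Cox4i2 was lower in DMSO and SB, and Cox6b2 in 1 CF culture with SB lay at 9.29.

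The upstream 250 bases of the 3 isoform genes and of Cox5a are shown since these were the complex IV genes that rose most with the factors. They are from RefSeq (GRCm38.p6, printed 5′ to 3′ toward the gene), with GATA words in capitals: Cox7a1 at chr7:30183921-30184170 (plus strand), Cox8b at chr7:140900447-140900696 (minus strand), Cox6b2 at chr7:4753095-4753344 (minus strand) and Cox5a at chr9:57520982-57521231 (plus strand).
Cox7a1: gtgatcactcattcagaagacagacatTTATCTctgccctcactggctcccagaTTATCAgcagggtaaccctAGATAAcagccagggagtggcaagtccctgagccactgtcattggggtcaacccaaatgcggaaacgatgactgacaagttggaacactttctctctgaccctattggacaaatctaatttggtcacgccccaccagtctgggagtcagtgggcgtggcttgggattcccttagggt
Cox8b: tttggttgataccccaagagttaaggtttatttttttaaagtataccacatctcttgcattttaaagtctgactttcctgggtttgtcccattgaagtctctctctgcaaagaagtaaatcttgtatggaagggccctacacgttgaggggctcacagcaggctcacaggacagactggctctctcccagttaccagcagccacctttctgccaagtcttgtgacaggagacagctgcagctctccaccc
Cox6b2: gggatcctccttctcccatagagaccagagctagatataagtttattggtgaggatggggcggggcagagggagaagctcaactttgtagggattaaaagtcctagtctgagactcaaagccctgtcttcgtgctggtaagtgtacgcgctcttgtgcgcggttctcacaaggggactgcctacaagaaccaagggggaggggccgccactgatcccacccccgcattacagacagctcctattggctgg
Cox5a: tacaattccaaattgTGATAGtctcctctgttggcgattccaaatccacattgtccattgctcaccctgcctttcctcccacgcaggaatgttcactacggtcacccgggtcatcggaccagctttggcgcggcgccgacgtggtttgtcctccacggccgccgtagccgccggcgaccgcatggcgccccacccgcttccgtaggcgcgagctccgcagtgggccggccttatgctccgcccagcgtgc
The Cox7a1 window holds 3 GATA words, beginning 223, 196 and 177 bases before the start, and the Cox5a window holds 1, beginning 235 bases before it. The Cox5a window lies inside the gene's annotated span (chr9:57517328-57532427), so its start is not the outermost one of that gene. None of the words searched stood in the Cox8b or Cox6b2 window. A link between words in these windows and the changes with the factors was not tested.

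Cox4i2 was the one member that fell with the factors in DMSO and SB. It was at 8.33, 8.30 and 8.23 in HNGMT+SB, 8.21, 7.98 and 8.05 in HNGMT+TGFβ1 and 8.33, 8.13 and 8.19 in HNGMT+DMSO, against 8.72, 8.49 and 8.69 in 0TF+SB, 8.37, 8.15 and 8.26 in 0TF+TGFβ1 and 8.55, 8.58 and 8.45 in 0TF+DMSO. HNGMT and 0TF cultures did not overlap in SB or DMSO and overlapped in TGFβ1. The factors changed it by -0.31 in DMSO (adjusted p = 0.0019), -0.35 under SB (adjusted p = 7.0e-04) and -0.18 under TGFβ1 (adjusted p = 0.055), and TGFβ1 by -0.27 in 0TF MEFs (adjusted p = 0.0053). Its partner Cox4i1, the widespread form of subunit IV, rose by 0.42 with the factors in DMSO, by 0.28 under SB and by 0.47 with TGFβ1 in 0TF MEFs.

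Other restricted isoforms moved little. Cox6a2, the third muscle form, was between 8.42 and 8.85 in all 18 MEF cultures and rose only in HNGMT+SB against 0TF+SB (0.19, adjusted p = 0.027), a call lost without 0TF+SB replicate 1, HNGMT+SB replicate 1 or HNGMT+SB replicate 2 (adjusted p = 0.052 to 0.18) or with the 2 groups fitted alone (adjusted p = 0.065). With Cox8b, 3 other members had means under 7.61: the testis forms Cox7b2 and Cox8c, at 5.68 to 5.91 and 7.28 to 7.60 in MEFs, and Ndufa4l2. In MEFs Cox8c had no call and Cox7b2 rose by 0.11 with TGFβ1 in HNGMT MEFs (adjusted p = 0.046), lost without any of 4 of the 6 cultures (TGFβ1 replicates 2 and 3, DMSO replicates 2 and 3, adjusted p = 0.11 to 0.14), with the 2 groups fitted alone (adjusted p = 0.079) and with quantile normalization (adjusted p = 0.093). Ndufa4l2, which low oxygen is known to induce, rose by 0.22 in the same comparison (adjusted p = 0.0046). In that comparison 7 of 16 genes of hypoxia and glycolysis rose and none fell, beside 21.5% of all genes higher. Of that list 10 rose and 2 fell with TGFβ1 in 0TF MEFs, beside 27.5% of all genes higher and 19.4% lower. Mean Ndufa4l2 was 7.61 against 7.54 there. With the factors in DMSO 11 rose and 2 fell, beside 21.6% of all genes higher and 18.9% lower. In that comparison mean Ndufa4l2 was 7.41 against 7.54. A link between the list and Ndufa4l2 was not tested.

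Among the 7 widespread partners (Cox4i1, Cox6a1, Cox6b1, Cox7a2, Cox7b, Cox8a and Ndufa4), 6 rose with the factors in DMSO, 6 under SB and 2 under TGFβ1, and none fell. The shares of all genes that rose with the factors were 21.6% in DMSO, 21.7% under SB and 20.5% under TGFβ1. All 7 rose with TGFβ1 in 0TF MEFs and 5 in HNGMT MEFs, where the calls of Cox4i1, Cox8a and Cox7b were each lost without some single cultures (adjusted p = 0.053 to 0.14). Of all genes, 27.5% rose with TGFβ1 in 0TF MEFs and 21.5% in HNGMT MEFs. Cox7a2, the partner of Cox7a1, was at 11.98, 11.91 and 11.98 in HNGMT+TGFβ1 and 11.71, 11.81 and 11.71 in HNGMT+DMSO, and at 11.65, 11.66 and 11.69 in 0TF+TGFβ1 and 11.22, 11.29 and 11.25 in 0TF+DMSO. The TGFβ1 interaction was called for Cox7a2 (-0.20), Cox4i1 (-0.29), Cox6a1 (-0.26) and Cox6b1 (-0.22), and not for Cox7a1 (-0.05, adjusted p = 0.82). Levels of different probe sets cannot be set against each other, so no share of an isoform in its pair is given.

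Ndufs6, a zinc-binding accessory subunit of complex I, rose 1.56-fold in HNGMT+SB against 0TF+SB (0.64 ± 0.13, adjusted p = 5.2e-04). It was at 10.82, 10.83 and 10.48 in HNGMT+SB and at 10.23, 9.67 and 10.31 in 0TF+SB, where replicate 2 lay lowest. Without that culture the change was 0.44 (adjusted p = 0.0015).

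In CFs almost no subunit passed the test. With SB, 0 of 81 members were called by limma. Of all genes 0.0552% rose, 0.211% fell and 0.241% passed the smaller fold threshold that the study used for CFs. An unadjusted p under 0.05 was reached by 1 of the 81 members and by 1240 of the 19938 genes. The median was 0.00 for the members and for all genes. Without HNGMT+SB replicate 3, the culture that stood apart, the count was also 0. In that culture Cox6b2 was at 9.29, against 10.12 and 10.13 in the other 2 with SB and 9.88, 10.04 and 10.01 with DMSO, and Ndufa4l2 was at 7.39, against 6.72 and 6.63. Cox8b lay at 7.11, 7.28 and 6.82 with SB and 7.09, 7.24 and 7.21 with DMSO, and Cox7a1 at 7.80, 7.83 and 7.61 with SB and 7.64, 7.91 and 7.79 with DMSO, so that the groups overlapped.

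With TGFβ1, 2 of the 81 members rose in CFs, none fell and 79 did not pass. An unadjusted p under 0.05 was reached by 21 of the 81 members and by 4329 of the 19938 genes. Of all genes 4.51% rose, 3.37% fell and 5.32% passed that fold threshold, which none of the members did. The median was 0.05 for the members and 0.00 for all genes. Ndufa11, which anchors the membrane arm of complex I, was at 12.08, 12.13 and 12.11 with TGFβ1 and 11.66, 11.96 and 11.78 with DMSO (0.31 ± 0.08, adjusted p = 0.045). Ndufa3 was at 11.95, 12.02 and 11.99 with TGFβ1 and 11.78, 11.87 and 11.81 with DMSO (0.17 ± 0.04, adjusted p = 0.044). Both calls were lost without any 1 of the 3 TGFβ1 cultures or without HNGMT+DMSO replicate 1 or 3 (adjusted p = 0.078 to 0.16), and with quantile normalization (adjusted p = 0.085 for Ndufa11 and 0.15 for Ndufa3). Without HNGMT+DMSO replicate 2, 4 members passed, and without HNGMT+DMSO replicate 1, 1 passed. The CF comparisons rest on 6 residual degrees of freedom, against 12 in MEFs.

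Regulators of mitochondrial genes did not move as 1 group. Of 15 measured, 5 rose and 1 fell with the factors in DMSO, and 7 rose and 3 fell with TGFβ1 in 0TF MEFs. Over all genes 21.6% rose and 18.9% fell in the former comparison, and 27.5% and 19.4% in the latter. Ppargc1a, the coactivator PGC-1α that drives mitochondrial biogenesis in heart and brown fat, was at 10.35, 10.31 and 10.31 in HNGMT+SB, 8.42, 8.60 and 8.44 in HNGMT+TGFβ1 and 9.45, 9.58 and 9.43 in HNGMT+DMSO. In 0TF MEFs it was at 8.15, 8.06 and 8.01 with SB, 7.15, 7.08 and 7.30 with TGFβ1 and 7.57, 7.67 and 7.64 with DMSO. The 6 groups did not overlap: the level rose with SB and fell with TGFβ1 in both settings, by 0.84 and -1.00 with the factors and 0.45 and -0.45 without them, and the factors raised it by 1.86 in DMSO (adjusted p = 5.6e-14). Most subunit genes rose with TGFβ1 in 0TF MEFs and Ppargc1a fell, and a link between them was not tested. Esrra, a nuclear receptor that acts with PGC-1α, rose by 0.43 with TGFβ1 in 0TF MEFs and had 0.05 in HNGMT MEFs (adjusted p = 0.56). Ppargc1b rose by 0.33 with the factors in DMSO, while Tfam, which packages mitochondrial DNA and starts its transcription, had no call in any of the 9 comparisons, and Nrf1 fell by 0.20 with TGFβ1 in 0TF MEFs. In CFs Ppargc1a fell by 0.87 with TGFβ1 (adjusted p = 0.018), a call lost without any 1 of the 6 cultures (adjusted p = 0.056 to 0.078) and with the mean of its probe sets (adjusted p = 0.061).

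Genes that work beside the chain were counted in the same way. With the factors in DMSO, 15 of 38 assembly factors rose and 2 fell, 11 of 17 genes of the TCA cycle and pyruvate entry rose, and 8 of 11 mitochondrial carriers and creatine kinases rose. With TGFβ1 in 0TF MEFs, 27 of 38 assembly factors rose, 13 of 17 TCA cycle genes rose and 1 fell, and 8 of 11 carriers rose. With TGFβ1 in HNGMT MEFs the counts were 10 up and 1 down, 1 up and 2 down, and 2 up. Over all genes 21.6% rose and 18.9% fell with the factors in DMSO. With TGFβ1 the shares were 27.5% and 19.4% in 0TF MEFs, and 21.5% and 14.3% in HNGMT MEFs. Cs and Cycs were named after their values were seen. Cs, citrate synthase, changed by 0.02 with TGFβ1 in HNGMT MEFs and by 0.35 in 0TF MEFs, and Cycs, cytochrome c, by -0.11 and 0.26. Both interactions were called (-0.33 for Cs and -0.37 for Cycs). Of the subunits encoded in mitochondrial DNA, COX2 and ND3 were measured, and neither was called in the 9 comparisons.

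Since subunit genes are bright on the array, their calls were also set beside those of bright genes alone (4219 genes with a mean of at least 10.37, of which 61 were members). With the factors in DMSO, 72.1% of these members and 38.9% of all bright genes rose, and under SB 83.6% and 38.8%. With TGFβ1 in 0TF MEFs the shares were 80.3% of members and 48.3% of bright genes. With TGFβ1 in HNGMT MEFs they were 26.2% of members and 33.5% of bright genes, and with the factors under TGFβ1 24.6% and 28.4%. With SB they were 1.64% and 3.96% in HNGMT MEFs and 23% and 11.5% in 0TF MEFs. In CFs they were 0% and 0.0474% with SB and 3.28% and 7.82% with TGFβ1. The members' share of rises was thus above that of bright genes in 4 of the 9 comparisons and below it in the other 5. Their median log2 fold change was above that of bright genes in all 9. With TGFβ1 in HNGMT MEFs the medians were 0.067 for members and 0.039 for bright genes. They were 0.078 and -0.019 with the factors under TGFβ1, and 0.075 and -0.004 with SB in HNGMT MEFs. These differences from bright genes were not tested.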

How the data were processed

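RNA of 27 cultures, in 9 groups of 3 set by the labels, was hybridised to Mouse Gene 1.0 ST arrays (Affymetrix). The authors processed the scans with Affymetrix Microarray Suite and Partek and deposited log2 values for 35556 probe sets. Background and normalization settings are not given in the sources used here, so the values were used as deposited. Platform annotation gave 1 symbol for 21789 probe sets, several for 1621 and none for 12146. Each of the 19938 genes was represented by its brightest single-symbol probe set; the 81 members had 105 probe sets, and 16 members had more than 1.

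MEF arrays (18) and CF arrays (9) were fitted separately with limma 3.58.1 in R 4.3.3 (lmFit, eBayes, 1 coefficient per group), and p-values were adjusted by Benjamini-Hochberg over all genes. A gene was called at an adjusted p under 0.05, and a second rule added the study's fold of 1.5 in MEFs or 1.25 in CFs. The replicates are called independent biological replicates in the labels. The fit was tested on simulated data. Members and gene lists were chosen with earlier results of these data known. Genes named were the isoform pairs of complex IV, members past the fold rule, up to 3 members with the largest called change in each direction per comparison, and 5 regulators; others are said to be named after their values were seen. Interactions were planned for named genes, and their count over all members and the comparison with bright genes were added after seeing the data. Alternatives were the 2 compared groups alone, a replicate block, an intensity trend, leaving out genes under the 40th percentile, quantile normalization, median scaling, the mean of probe sets, and leaving out each culture. Figures were drawn with matplotlib 3.10.9 in Python 3.11.15. Promoter sequences are from RefSeq (GRCm38.p6).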

Additional observations from a re-analysis of the deposited data

Results flagged for a closer look

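For the genes named here, the effect of an added molecule was compared between HNGMT and 0TF MEFs, and 18 such differences passed the test of the difference itself (limma interaction, adjusted over all genes). Each is the log2 effect in HNGMT MEFs minus that in 0TF MEFs. With SB the difference was 0.49 for Cox7a1 (adjusted p = 0.026), 0.40 for Cox6b2 (adjusted p = 0.024) and 0.39 for Ppargc1a (adjusted p = 0.0063). The Cox7a1 and Cox6b2 calls did not hold without some single cultures.

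With TGFβ1 15 differences passed, all negative. Several of these genes were named for a large called change in the comparisons that make up the difference, among them Uqcrq, Cox5a, Atp5l, Ndufs3, Atp5c1, Ndufs5 and Ndufa5, so their shared sign is a description and supports nothing further. In complex IV they were -0.50 for Cox5a, -0.46 for Cox8b (dim in 0TF MEFs), -0.29 for Cox4i1, -0.26 for Cox6a1, -0.22 for Cox6b1 and -0.20 for Cox7a2. In complex I they were -0.46 for Ndufs5, -0.39 for Ndufs3 and -0.22 for Ndufa5, the last lost without either of 2 single cultures. In complexes II, III and V they were -0.31 for Sdhd, -0.56 for Uqcrq, -0.35 for Atp5l and -0.29 for Atp5c1. The regulators Ppargc1a and Esrra differed by -0.55 and -0.38. Ndufs3 and Atp5c1 fell with TGFβ1 in HNGMT MEFs and rose in 0TF MEFs, the rise of Atp5c1 being lost with quantile normalization (adjusted p = 0.065). Their causes were not tested.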

How the results depend on the processing

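No called value of a named gene changed sign under the alternatives run. Of the alternatives for named genes, 4960 kept the direction and the side of the threshold, 60 newly passed and 133 no longer passed, and in 158 a value not called in either fit changed sign. Quantile normalization called 2 members with TGFβ1 in CFs, neither of them Ndufa11 or Ndufa3. With the study's fold, members called numbered 0 with SB in HNGMT MEFs, 0 with SB in 0TF MEFs, 0 with TGFβ1 in HNGMT MEFs, 3 with TGFβ1 in 0TF MEFs, 4, 5 and 1 for HNGMT against 0TF in DMSO, SB and TGFβ1, and 0 with TGFβ1 in CFs. An intensity trend gave 5 with SB in HNGMT MEFs. Fitting the 2 groups alone gave 8 with SB in 0TF MEFs and 7 with TGFβ1 in CFs (5 higher, 2 lower). Median scaling gave medians of 0.12 and 0.25 with TGFβ1 in HNGMT and 0TF MEFs and 0.0935 in CFs, where 5 members were called; quantile normalization gave 0.17 in 0TF MEFs and 0.0435 in CFs. The causes were not tested. For HNGMT against 0TF in TGFβ1, median scaling gave 14 higher and 6 lower.

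Leaving out single cultures, counts ran between 2 and 5 (median 0.07 to 0.09) with SB in HNGMT MEFs, 7 and 20 (0.04 to 0.10) with SB in 0TF MEFs, 18 and 27 (0.07 to 0.10) with TGFβ1 in HNGMT MEFs and 52 and 59 (0.20 to 0.24) with TGFβ1 in 0TF MEFs. For HNGMT against 0TF they ran between 52 and 55 (0.21 to 0.23) in DMSO, 52 and 65 (0.18 to 0.24) in SB and 19 and 26 (0.06 to 0.08) in TGFβ1. In CFs they were 0 and 0 (-0.012 to 0.0151) with SB and 0 and 4 (0.0316 to 0.0671) with TGFβ1. Interaction counts ran between 0 and 4 for SB and 24 and 30 for TGFβ1.

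With the replicate number as a replicate block, the 9 comparisons gave 3, 16, 27, 57, 54, 61, 26, 0 and 2 called members in the same order. Same-numbered cultures did not deviate together in every pair (correlations of -0.45 to 0.59 in MEFs, with 7 of 18 closest to their own number, and -0.25 to 0.65 in CFs, with 5 of 9). Their mean correlation was -0.003 in MEFs, against 0.0009 for cultures of other numbers, and 0.13 against -0.07 in CFs. These values cannot settle whether same-numbered cultures shared a batch. With the block, Ndufs5 (HNGMT against 0TF in TGFβ1), Ndufa3 (TGFβ1 in CFs) and Cox7b (TGFβ1 in HNGMT MEFs) were among the calls lost (adjusted p = 0.063, 0.064 and 0.053). The number of arrays limits the precision, most of all in CFs.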
